A study of Mus musculus with 6 samples.

Results

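The miR-29 family comprises 7 mature miRNA arms in the deposited table of 1414 rows, chosen by name: mmu-miR-29a-3p, mmu-miR-29a-5p, mmu-miR-29b-3p, mmu-miR-29b-1-5p, mmu-miR-29b-2-5p, mmu-miR-29c-3p and mmu-miR-29c-5p, written here without the mouse prefix. They were measured in 6 small RNA libraries from mouse pancreas, 3 from controls (replicates 43, 44 and 45) and 3 from an acute pancreatitis model (replicates 56, 57 and 59). All mice were wild-type C57BL/6 of 22 to 25 g and received 7 intraperitoneal injections 1 hour apart. Model mice were given caerulein, a cholecystokinin analogue that overstimulates the acinar cells, at 50 mg/kg as the labels state it, with bacterial lipopolysaccharide (LPS) added to the last injection. Controls were given saline alone, and the treatment label of both groups names saline as a second item. Pancreas was taken 24 hours after the start, and no group received caerulein or LPS alone, so the effects of these agents cannot be told apart. No label ties a library to a single animal. The p-values below therefore set group differences against the spread between libraries of a group, and some of that spread may be technical.

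A miRNA hairpin yields a 5p and a 3p arm, of which usually one is loaded into Argonaute as the guide and the other, the passenger, is mostly degraded. The guide finds its targets chiefly through the seed, bases 2 to 8 from its 5′ end. In miR-29 the 3p arms are the guides, and their best known targets are messenger RNAs of extracellular matrix proteins such as the fibrillar collagens, which is why the family is described as antifibrotic. In the pancreas, matrix is made mainly by stellate cells, which are activated in pancreatitis.

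The mature sequences are shown because the 3p arms share one seed while the 5p arms do not. All 7 matched the RefSeq entries of GRCm38.p6 letter for letter, and the seed is in capitals.
miR-29a-3p: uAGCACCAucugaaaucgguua
miR-29b-3p: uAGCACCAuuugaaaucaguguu
miR-29c-3p: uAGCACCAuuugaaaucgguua
miR-29a-5p: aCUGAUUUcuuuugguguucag
miR-29b-1-5p: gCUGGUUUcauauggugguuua
miR-29b-2-5p: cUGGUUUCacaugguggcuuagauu
miR-29c-5p: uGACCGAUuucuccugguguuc

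The 3 guide strands carry the seed AGCACCA. With positions counted from the 5′ end, miR-29a-3p and miR-29c-3p differ by 1 substitution outside the seed, C10U. Between miR-29a-3p and miR-29b-3p there are 4, C10U, G18A, U21G and A22U, and miR-29b-3p is 1 base longer. With so few differences, the split of reads between the 3 guides depends on how the authors assigned them, a step the sources used here do not describe. Only miR-29b-3p ends in AGUGUU, an element known to direct this miRNA to the nucleus. Of 1400 distinct sequences in the table, 2 (0.143%) end in it, the other being miR-92b-5p. Each 5p arm has a seed of its own: that of miR-29b-2-5p, UGGUUUC, lies 1 base further along the arm than that of miR-29b-1-5p, CUGGUUU. No other known row of the table holds AGCACCA at bases 2 to 8. One predicted row does, with 1 count in 1 library.

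The 4 hairpins lie in 2 clusters, placed here with RefSeq and GENCODE M21 on GRCm38. On chromosome 6, minus strand, Mir29a lies from 31062660 to 31062747 and Mir29b-1 from 31063023 to 31063093, with 275 bases between them. Mir29b-1 overlaps an exon of the long noncoding RNA Gm27019 at its edge, and Mir29a overlaps no other annotated gene. On chromosome 1, plus strand, Mir29b-2 lies from 195037040 to 195037120 and Mir29c from 195037547 to 195037634, with 426 bases between them. Both of these lie in an exon of the noncoding A330023F24Rik and opposite an annotated exon of the complement regulator Cd46. Both Mir29b hairpins give the same miR-29b-3p, so its counts cannot be divided between the clusters.

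Total counts per library ran from 1943693 to 3006220. Levels are given as counts per 1000000 (CPM) scaled with TMM factors, which set the typical miRNA equal between libraries. Over the 7 members, the family took 1.13%, 0.853% and 1.16% of all counts in controls 43, 44 and 45. In models 56, 57 and 59 it took 1.34%, 1.21% and 1.39%. All 3 model libraries lay above all controls in this unscaled share (1.05% ± 0.169 against 1.31% ± 0.0944, SD, n = 3 each, no test). With counts scaled to library totals alone, the median log2 fold change was 0.37 over the tested members and 0.295 over all 499 tested rows. A share of counts falls or rises with whatever else is in the library, and on the TMM scale the groups overlapped for every member. In whole tissue, fewer cells of a type and less of a miRNA per cell cannot be told apart. Nearly all of the family's counts were guide strands: the 4 5p arms made up 0.837% to 1.78% of them.

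**Figure D1:**
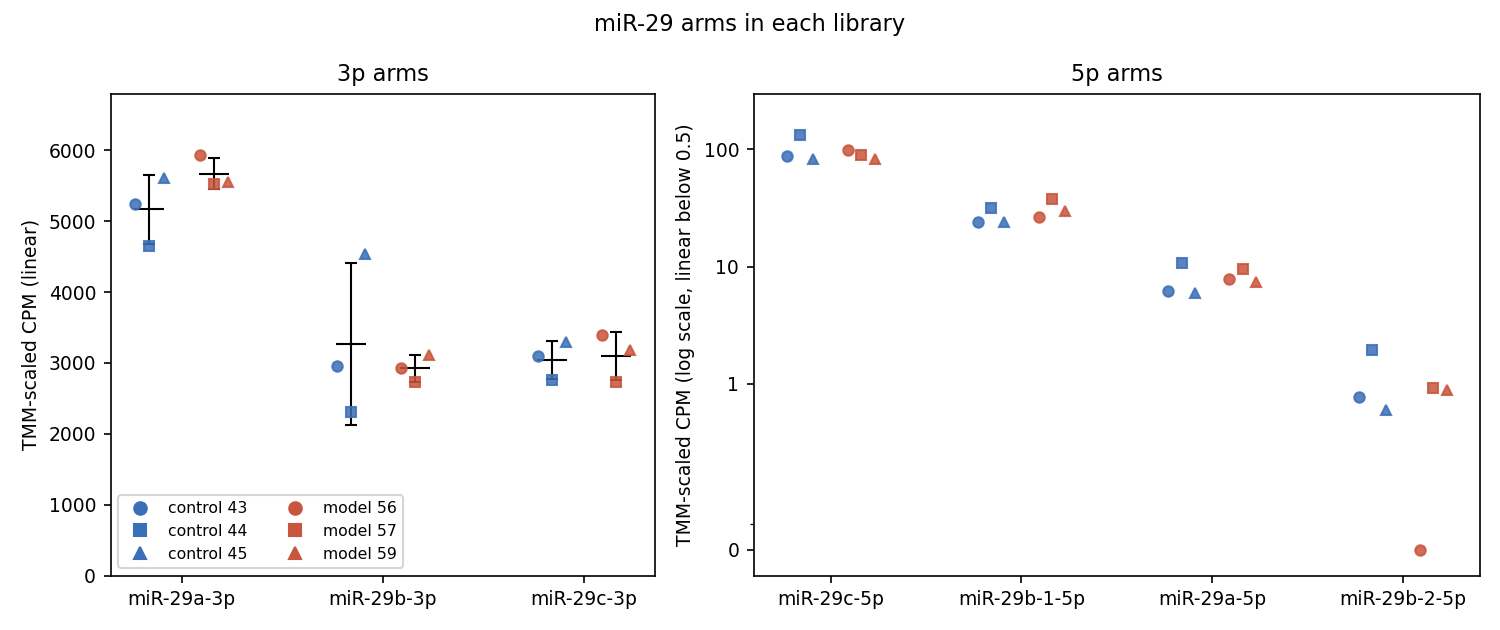
Level of each miR-29 arm in TMM-scaled CPM, with 1 point per library, 3p arms on a linear axis with mean and SD (n = 3) and 5p arms on a log axis that is linear below 0.5. For every arm the control and model libraries overlap, and control replicate 45 lies above all other libraries for miR-29b-3p.

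Control and model libraries overlapped in the level of each guide, and none of the 6 tested members passed the test. The most abundant member, mmu-miR-29a-3p, was at 5248, 4644 and 5606 CPM in the controls (43, 44, 45) and at 5929, 5528 and 5557 CPM in the model libraries (56, 57, 59). Only model replicate 56 lay above every control. The log2 fold change was 0.13 (SE 0.15, 95% interval -0.21 to 0.475, edgeR adjusted p = 0.6545), so on the TMM scale the interval reaches from 0.867-fold to 1.39-fold. It ranked between 40 and 48 among 1090 distinct known miRNA rows in each library.

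The guide from the chromosome 1 cluster, mmu-miR-29c-3p, was at 3093, 2759 and 3289 CPM in controls and at 3392, 2729 and 3184 CPM in model libraries, in the same order of replicates. The groups covered almost the same range. Its log2 fold change was 0.03 (SE 0.18, 95% interval -0.38 to 0.43, edgeR adjusted p = 0.964), or 0.768-fold to 1.35-fold. The sign of so small a value turned without control replicate 44 (-0.05) and without model replicate 56 (-0.004).

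The guide with the nuclear element, mmu-miR-29b-3p, was at 2963, 2311 and 4531 CPM in controls and at 2929, 2732 and 3108 CPM in model libraries. The controls spread far more widely than the model libraries, with a coefficient of variation of 34.9% against 6.43%, and held both the lowest and the highest value. The log2 fold change was -0.16 (SE 0.26, 95% interval -0.77 to 0.44, edgeR adjusted p = 0.786). Its sign rested on control replicate 45: without that library it was 0.12 (edgeR adjusted p = 0.736).

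The passenger strands were scarcer and less precisely measured. miR-29c-5p, the most abundant of them, was at 87.4, 132 and 82.8 CPM in controls and at 99.3, 89.9 and 82.8 CPM in model libraries, with control replicate 44 the highest. Its log2 fold change was -0.15 (SE 0.26, 95% interval -0.76 to 0.45, edgeR adjusted p = 0.787), and 0.08 without that library. miR-29b-1-5p was at 24.3, 31.6 and 24.0 CPM in controls and at 26.3, 37.7 and 29.6 CPM in model libraries, and its log2 fold change came to 0.23 (SE 0.27, 95% interval -0.40 to 0.86, edgeR adjusted p = 0.693). Here model replicate 57 was highest, and the other model libraries lay within the range of the controls. miR-29a-5p, the passenger of the most abundant guide, was at 6.16, 10.7 and 6.00 CPM in controls and at 7.78, 9.51 and 7.47 CPM in model libraries. With 10 to 31 counts per library its interval was wide (log2 fold change 0.11, SE 0.38, 95% interval -0.76 to 0.99, edgeR adjusted p = 0.897). Its sign turned without control replicate 43 or 45 (-0.05 each).

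miR-29b-2-5p did not pass the filter on low counts and was not tested. It had 2, 4 and 1 counts in controls and 0, 3 and 3 in model libraries. At this depth a count of 0 allows up to 3 counts, or 1.11 CPM in model replicate 56, so no difference could be seen for it.

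Of the 7 members, 6 were tested and 0 were called in either direction, where edgeR called 1.2% of the 499 rows tested (5 higher and 1 lower). At an unadjusted p under 0.05 the count was also 0 of 6, against 23.8% of all rows. None of the members had groups that did not overlap, against 31.1% of all rows (14.4% higher and 16.6% lower in the model). Among the tested members 4 log2 fold changes were positive and 2 negative, with a median of 0.07, and over all rows 50.3% were positive, with a median of 0.005. The guides belong to the 67 rows of 1000 to 10000 CPM, whose median log2 fold change was -0.13 with quartiles of -0.43 and 0.14.

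**Figure D2:**
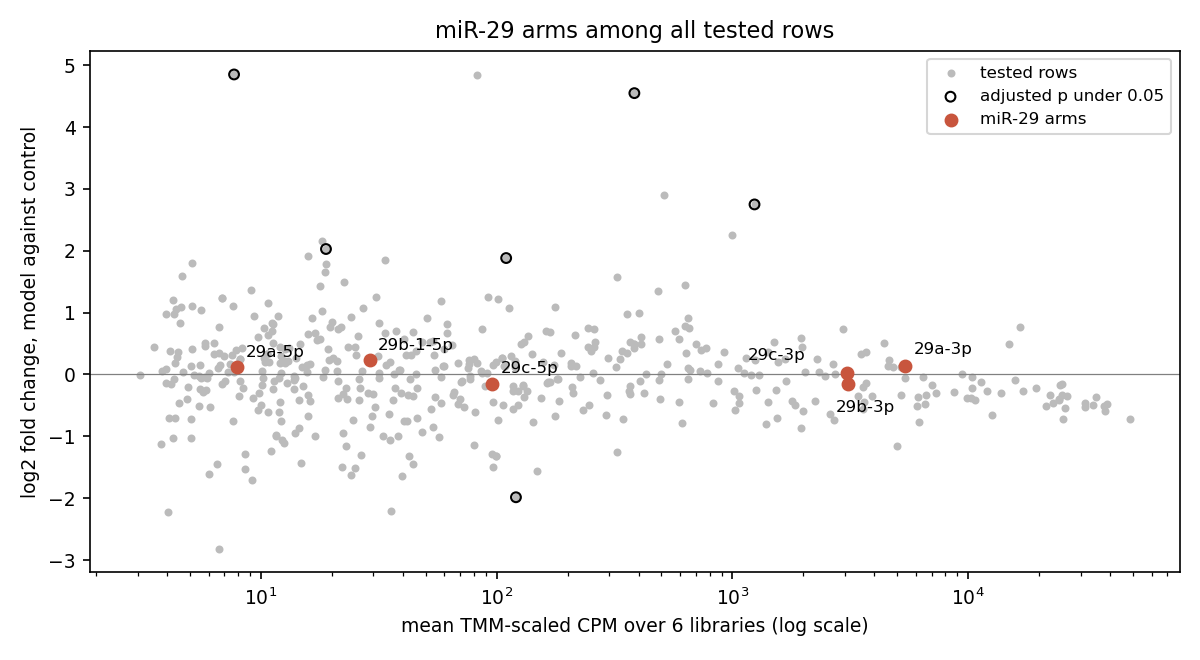
Log2 fold change, model against control, against mean TMM-scaled CPM on a log axis for the 499 tested rows, with the 6 tested miR-29 arms filled and the 6 rows with an adjusted p under 0.05 circled. The miR-29 arms lie between -0.16 and 0.23, near 0 at every abundance.

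How the family compares between groups depended on how the libraries were put on one scale. The authors' own RPM values divide each count by a total of 22055639 to 27876715, about which nothing more is given, and on that scale miR-29a-3p was at 489, 350 and 345 RPM in controls and at 658, 817 and 766 RPM in model libraries. On the authors' scale miR-29b-3p was at 276, 174 and 279 against 325, 404 and 428 RPM, and miR-29c-3p at 288, 208 and 202 against 376, 403 and 439 RPM. For each of the 6 tested members all 3 model libraries then lay above all controls, as they did for 49.5% of all rows. With the authors' totals the log2 fold change of miR-29a-3p became 0.92 (edgeR adjusted p = 0.0296), and 24.1% of rows were called higher. The other 5 members did not pass, with edgeR adjusted p from 0.0652 for miR-29b-1-5p and miR-29c-3p to 0.188 for miR-29c-5p.

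That scale moved all rows together: the median log2 fold change over all rows was 0.79 with the authors' totals, 0.30 with total counts alone, -0.29 with upper quartile factors and 0.01 with RLE factors. With upper quartile factors all 6 members were negative, from -0.07 for miR-29b-1-5p to -0.44 for miR-29b-3p and miR-29c-5p. All 6 were positive with total counts alone, and likewise with the authors' totals. A change of scaling shifts all rows by nearly the same amount, so values measured from the median of all rows can hardly move. Over the 5 scalings they ran from 0.13 to 0.14 for miR-29a-3p, 0.01 to 0.03 for miR-29c-3p and -0.17 to -0.13 for miR-29b-3p.

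**Figure D3:**
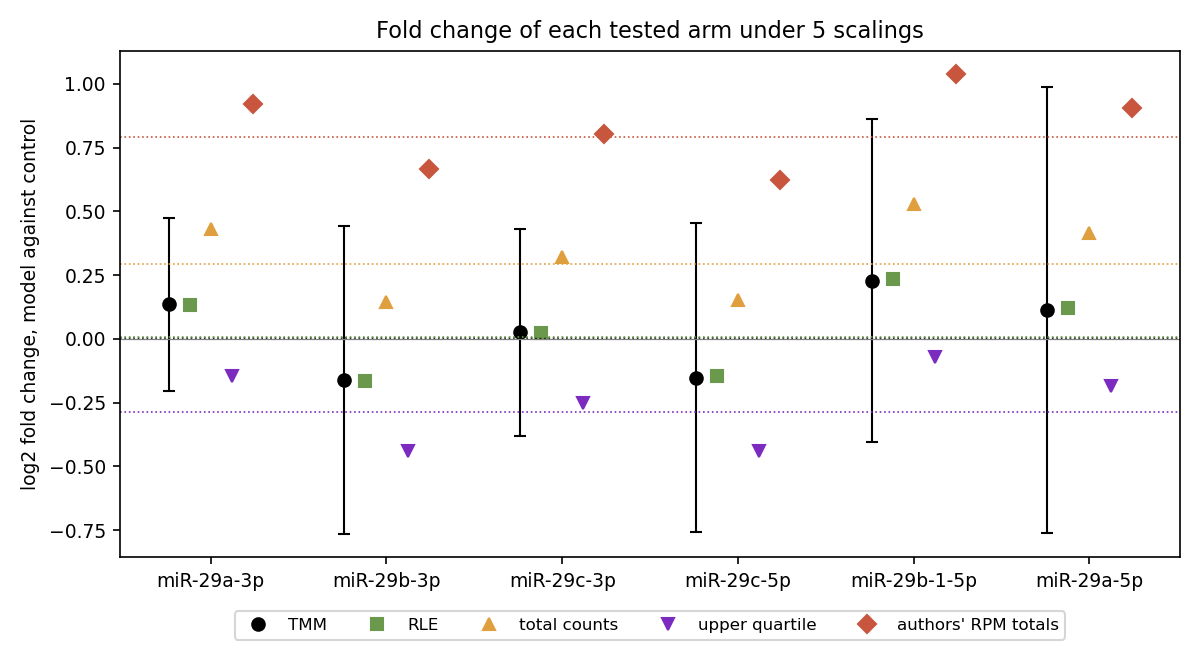
Log2 fold change of each tested miR-29 arm under 5 scalings, with the 95% interval for TMM and dotted lines at the median of all rows under each scaling. The members move up and down with the dotted lines, from all 6 negative with upper quartile factors to all 6 positive with the authors' RPM totals.

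Ratios between members within a library need no scaling. There were 0.589, 0.594 and 0.587 counts of miR-29c-3p per count of miR-29a-3p in controls, and 0.572, 0.494 and 0.573 in model libraries. Each model library lay below each control, and the 3 controls were close together. The log2 ratio was -0.76 ± 0.01 in the controls and -0.88 ± 0.12 with caerulein and LPS (SD, n = 3 each), a difference of -0.11 with an exact permutation p = 0.1, two-sided, the smallest that 3 against 3 can give (adjusted p = 0.5 over 5 ratios). Its size rested on model replicate 57: without that library the difference was -0.04.

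For miR-29b-3p the ratio to miR-29a-3p was 0.564, 0.498 and 0.808 in controls and 0.494, 0.494 and 0.559 in model libraries. Control replicate 45 stood apart, and the other 5 libraries lay close together. The log2 ratio differed by -0.24 between groups (exact permutation p = 0.2; adjusted p = 0.5), and by -0.04 without control replicate 45. The ratio of miR-29c-3p to miR-29b-3p was 1.04, 1.19 and 0.726 in controls and 1.16, 0.999 and 1.02 in model libraries, so the order of these guides was not the same in every library (exact permutation p = 0.9, adjusted p = 0.9). For the passengers of the chromosome 6 cluster, miR-29b-1-5p outnumbered miR-29a-5p 2.91 to 3.86 times in controls and 3.33 to 3.92 times in model libraries (0.5 counts added; exact permutation p = 0.5, adjusted p = 0.75). In the chromosome 1 cluster, miR-29b-2-5p was at 0.0108 to 0.0166 of miR-29c-5p in controls and 0.00186 to 0.0126 in model libraries, the lowest of these resting on the library with 0 counts (exact permutation p = 0.6, adjusted p = 0.75).

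The arms of each hairpin were far apart in abundance, and to a different degree for each guide. In controls the 3p arm of miR-29a had 852, 434 and 935 counts per 5p count, and in model libraries 762, 581 and 744. For miR-29c these were 35.4, 20.9 and 39.7 in controls and 34.2, 30.4 and 38.5 in model libraries. The miR-29b arms, with the 5p counts of both hairpins summed, lay between, at 118, 68.8 and 184 in controls and 111, 70.7 and 102 in model libraries. The 3 ranges did not overlap, so the order of miR-29a over miR-29b over miR-29c held in all 6 libraries.

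None of these arm ratios differed between groups by the test. As the log2 ratio of 5p to 3p with 1 count added, the difference was -0.02 for miR-29a (SE 0.37, 95% interval -0.90 to 0.86, limma adjusted p = 0.994), 0.29 for miR-29b (SE 0.43, 95% interval -0.72 to 1.30, limma adjusted p = 0.852) and -0.15 for miR-29c (SE 0.35, 95% interval -0.97 to 0.67, limma adjusted p = 0.909). Over the 136 hairpins tested, 0.735% were called. The unadjusted p was under 0.05 for 0 of these 3, against 14.7% of all hairpins, and the groups overlapped in all 3, where they were apart in 19.9% of all. The sign turned without 1 library for each: without control replicate 44 for miR-29a (0.31) and miR-29c (0.13), without control replicate 45 for miR-29b (-0.05), and for miR-29a also without model replicate 56 (0.05) or 59 (0.04). Control replicate 44 had the largest share of passenger among the controls in all 3. Over all 136 hairpins the scarcer arm was relatively highest in control replicate 43 for 39, in 44 for 52 and in 45 for 45.

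**Figure D4:**
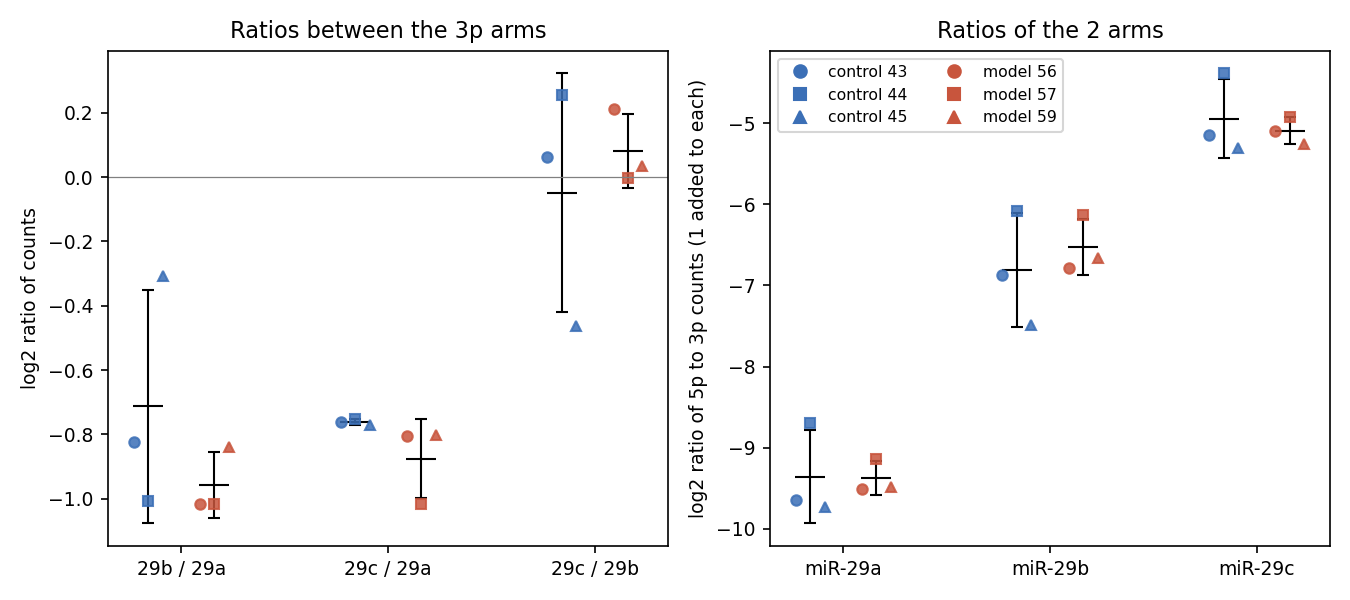
Left, log2 ratios of counts between the 3p arms, and right, log2 ratios of 5p to 3p counts (1 added to each) for each miRNA, with 1 point per library, the mean and SD (n = 3). The model libraries lie below the controls only for 29c / 29a, and control replicate 45 stands apart from the others in 29b / 29a.

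The passengers of the Mir29b hairpins differ in sequence and were counted apart. How much of each passenger survives was not measured, and the arm ratios above differed widely between members of the family. The shares below are therefore shares of passenger counts, and the processing of each hairpin was not tested. Of the miR-29b 5p counts, 461 of 474 over the 6 libraries were miR-29b-1-5p from chromosome 6 (97.3%, exact Clopper-Pearson 95% interval 95.4% to 98.5%, counting error only), and between 94.2% and 100% in each library. The table holds a further row that touches this count, a predicted miRNA listed on chromosome 8 and printed here because its 18 bases are bases 1 to 18 of miR-29b-2-5p.
miR-29b-2-5p: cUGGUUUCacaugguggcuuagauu
predicted row: cUGGUUUCacaugguggc

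That predicted row had 44, 47 and 27 counts in controls and 48, 44 and 77 in model libraries, 287 in all against 13 for miR-29b-2-5p. Its sequence lies both in its own predicted precursor of 73 bases and in Mir29b-2, so from these letters the source of its reads cannot be told apart. If its counts are placed with miR-29b-2-5p, the share of miR-29b-1-5p becomes 72.4% in model replicate 57 and 55.3% to 59.7% in the other 5 libraries. The miR-29b 3p arm then has 40.9 to 111 counts per 5p count, and its log2 arm ratio differs by 0.22 between groups (limma adjusted p = 0.894). On its own the predicted row stood at -0.04 on the log2 scale, model against control (SE 0.32, edgeR adjusted p = 0.964). Of 310 predicted rows, 16 lie wholly within a RefSeq hairpin, and this is the only one within a miR-29 hairpin.

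Control replicate 45 stood apart in a set of abundant miRNAs that includes miR-29b-3p. Of the 99 rows of at least 1000 CPM, 13 (13.1%) were more than 1.5 times as high in this library as in both other controls, against 2 and 6 rows in control replicates 43 and 44 and 0 to 2 in the model libraries. In the other direction control replicate 44 had the most. There 8 rows lay under both other controls by more than 1.5 times, against 3 in control replicate 45 and 1 in 43. For the model libraries this was 1 to 4 rows. miR-29b-3p was among the 13, and miR-29a-3p and miR-29c-3p were not. Over the 6 libraries the rows most like miR-29b-3p, picked after its values were seen, were miR-217-5p (Pearson r = 0.989 on log2 CPM), miR-125b-5p (0.984), miR-30c-5p (0.981), miR-30a-5p (0.957) and miR-152-3p (0.948), all of them among the same 13. Since miR-29b-3p was itself high in control replicate 45, a high r and a place among the 13 rest largely on the same library. miR-217-5p is enriched in acinar cells, and it was at 4138 CPM in control replicate 45 against 909 to 1947 in the other libraries. The other arm of that hairpin, mmu-miR-217-3p, was lowest of the controls there, at 2081 CPM against 2374 and 2775. Of its acinar neighbours, mmu-miR-216a-5p was at 35582 CPM against 24841 and 23057, and mmu-miR-216b-5p at 8186 CPM against 7023 and 7722. The most abundant of the 4 acinar markers taken below, mmu-miR-148a-3p, was itself among the 13, at 44712 CPM against 23000 and 24089. These acinar rows thus differed by unequal amounts in that library.

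Across the 6 libraries the r between guides was 0.69 for miR-29a-3p with miR-29c-3p, 0.55 for miR-29a-3p with miR-29b-3p and 0.65 for miR-29b-3p with miR-29c-3p. Ranked by likeness to miR-29a-3p among 209 rows, miR-29c-3p was at place 30 and miR-29b-3p at place 44. By likeness to miR-29c-3p, miR-29a-3p was at place 16 and miR-29b-3p at place 19. For miR-29a-3p the closest of 207 other rows of at least 100 CPM were miR-501-3p (0.93), let-7e-5p (0.92), miR-145a-5p (0.92), miR-7b-5p (0.91) and miR-24-3p (0.89). For miR-29c-3p they were miR-32-5p (0.88), miR-183-5p (0.88), miR-329-3p (0.86), miR-486a-5p (0.86) and miR-144-3p (0.85). These are descriptions over 6 libraries, which share the group difference and the scaling.

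Other miRNAs with known roles in fibrosis were taken as companions. Of 10 miRNAs known to promote fibrosis, all tested, 0 were called (1.2% of all rows), 5 were positive and 5 negative, with a median log2 fold change of 0.09. The most abundant was miR-34a-5p, a p53 target, whose log2 fold change was -0.15 with an SE of 0.12 (edgeR adjusted p = 0.532). miR-21a-5p, raised in many fibrotic tissues, was above the controls in all 3 model libraries (0.77, SE 0.16, edgeR adjusted p = 0.0564). So was miR-155-5p, an inflammatory miRNA named after its values were seen, with the largest value of the list (2.91, SE 0.55, edgeR adjusted p = 0.0564). The other abundant member, miR-192-5p, had -0.03 (SE 0.26, edgeR adjusted p = 0.967). All model libraries also lay above all controls for miR-222-3p (0.49, SE 0.23) and miR-199a-3p (0.49, SE 0.23). They lay below all controls for miR-199a-5p (-0.46, SE 0.22). Apart from these, miR-21a-5p and miR-155-5p, the groups overlapped throughout the list. Over all tested rows the groups were apart in 14.4% with the model higher and in 16.6% with it lower. Of 20 tested miRNAs known to restrain fibrosis, from a list of 21, 1 was called higher (miR-18a-5p, of the miR-17-92 cluster, at 1.88, SE 0.23, edgeR adjusted p = 0.0077), 7 were positive and 13 negative, with a median of -0.07. The most abundant of these were miR-26a-5p (-0.60, SE 0.12, edgeR adjusted p = 0.0564) and the epithelial miR-200c-3p (-0.34, SE 0.12, edgeR adjusted p = 0.157) and miR-200a-3p (-0.46, SE 0.13, edgeR adjusted p = 0.0866).

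Markers of pancreatic and other cell types were all detected, with 0 markers at 0 counts in any list. For the counts of called markers below, the share called over all tested rows was 1.2%. The summed level of 6 markers of stellate cells, fibroblasts and smooth muscle was 18200 to 28210 CPM in control and 17470 to 21080 CPM in model libraries, with 0 of 6 called. For 4 acinar markers it was 55780 to 92620 against 47830 to 50990 CPM, with 0 of 4 called and control replicate 45 the highest. The model libraries were also below the controls in the sums of 4 islet markers (59670 to 81610 against 39410 to 52680 CPM), 2 endothelial markers (40570 to 47690 against 32210 to 37870 CPM) and 5 epithelial markers (89700 to 106600 against 73910 to 80970 CPM). In the endothelial sum miR-126a-3p weighed most (log2 fold change -0.36, SE 0.13), while miR-126a-5p was positive (0.12, SE 0.18) and its groups overlapped. In the islet sum miR-375-3p weighed most (-0.73, SE 0.15), and miR-184-3p was also lower (-0.71, SE 0.31). The groups overlapped for miR-7a-5p (0.005, SE 0.21) and miR-204-5p (-0.30, SE 0.24). Of the acinar markers they overlapped for miR-217-5p (-0.50, SE 0.55). Of the epithelial markers they overlapped for miR-141-3p (-0.31, SE 0.17) and miR-200b-3p (-0.06, SE 0.17). For the remaining acinar and epithelial markers all model libraries lay below all controls, as they did for 16.6% of all tested rows. Over all 32 rows of at least 10000 CPM, which weigh most in such sums, the median log2 fold change was -0.37 and 2 were positive. The sum of 3 erythroid markers overlapped (10640 to 13630 against 7100 to 12080 CPM). For 6 leukocyte markers it was 4599 to 6890 against 5347 to 11490 CPM, with 1 of 6 called, miR-223-3p at 2.75 (SE 0.31, edgeR adjusted p = 0.0077). Of these 6 markers 5 were positive and 1 negative, with a median log2 fold change of 1.22. The negative one, miR-150-5p at -0.35 (SE 0.47), was the most abundant and weighed most in the sum. The part of these cell types in the miR-29 values was not tested.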

How the data were processed

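Small RNA of 18 to 30 nt, size-selected on a gel, was ligated to adapters carrying unique molecular identifiers, per the labels' protocols. The authors deposited one table of whole-number read counts per mature miRNA arm, with RPM values beside them, per the file headers and the values. The submitters' processing notes name Bowtie2 and GRCm38.p6 without a role. The sources used here do not say whether reads were collapsed on identifiers, so intervals of shares and limits from a count of 0 cover counting error only. Control and model libraries were compared with edgeR 4.0.16 in R 4.3.3: filterByExpr (minimum count 10, minimum total 15), which kept 499 rows, TMM factors, robust quasi-likelihood test, two-sided, Benjamini-Hochberg adjustment over all rows, threshold 0.05. Intervals of fold changes, the log2 fold change with its SE and the t quantile of the fit, cover the spread between libraries. Arm ratios were tested with limma 3.58.1 (robust) over 136 hairpins, each arm averaging 10 or more counts. Ratios between members were compared with exact permutation tests. Replicates of a group differed by far more than sampling noise (chi-square per degree of freedom 98.7 to 265). Steps were tested on simulated data. All members are described. Of other rows, those most like 2 guides by Pearson's r and the most abundant of fixed lists are named. miR-92b-5p, miR-217-3p, miR-216a-5p, miR-216b-5p, miR-155-5p and the rows like miR-29b-3p were named after their values were seen. So were miR-18a-5p, miR-184-3p, miR-222-3p, miR-199a-3p, miR-199a-5p, miR-141-3p and miR-200b-3p. The members, lists and tests were chosen with earlier results of these data known.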

Additional observations from a re-analysis of the deposited data

How the results depend on the processing

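Under 15 alternatives, 1 of 90 values of the tested members passed the threshold, that of miR-29a-3p with the authors' RPM totals (0.92), where 1 member was called in place of 0. Over all rows the 6 calls became 15 with RLE factors, 18 with total counts alone, 45 with upper quartile factors, 123 with the authors' RPM totals, 38 with DESeq2, 58 with no filter on low counts and 15 with known rows only, and 3 to 10 without 1 library. Signs turned with upper quartile factors for miR-29a-3p (-0.145), miR-29a-5p (-0.183), miR-29b-1-5p (-0.071) and miR-29c-3p (-0.252). They turned for miR-29b-3p and miR-29c-5p with total counts alone (0.146 and 0.151) and with the authors' totals (0.667 and 0.623), and for miR-29c-3p with no filter (-0.0013). Without 1 library the log2 fold changes ran from 0.053 to 0.179 for miR-29a-3p, -0.0467 to 0.426 for miR-29a-5p, -0.367 to 0.122 for miR-29b-3p, 0.106 to 0.388 for miR-29b-1-5p, -0.0513 to 0.136 for miR-29c-3p and -0.301 to 0.0796 for miR-29c-5p. Arm ratio differences ran from -0.204 to 0.314 for miR-29a, -0.0483 to 0.655 for miR-29b and -0.329 to 0.131 for miR-29c, and that of miR-29a was 0.0021 with 0.5 counts added. Log2 ratio differences ran from -0.0772 to 0.282 for miR-29c-3p to miR-29b-3p and from -0.0563 to 0.157 for miR-29b-1-5p to miR-29a-5p. The difference in the family's share was 0.265 percentage points, and 0.168 to 0.322 without 1 library. Against the authors' totals it was 0.0675 points, a value not comparable in size because those totals are far larger than the summed counts. In relative terms the members rose more there, with a median log2 fold change of 0.855 against 0.37 with total counts alone. All rows did likewise, with medians of 0.793 and 0.295. The cause of these changes was not tested. Where a group had 2 libraries, its spread was taken with that of the others. The newer edgeR dispersion and the placing of the predicted row were chosen after seeing the data and called no member. No paired analysis was possible because the groups share no replicate numbers. Depth limited the 5p arms most, with 10 to 31 counts for miR-29a-5p and 0 to 4 for miR-29b-2-5p.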
